A study of Mus musculus with 178 samples.

Results

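Sox10, S100b, Mbp and Ngfr, 4 of the 24421 genes in the deposited count tables, are the members described here. Sox10 is the transcription factor that specifies and maintains the Schwann cell lineage, S100b is a calcium-binding protein of glia, Mbp is a structural protein of compact myelin, and Ngfr is the p75 neurotrophin receptor. They were chosen by symbol because earlier results of these data had shown them high in the pericyte gate, so their levels between gates are a description with no test. Schwann cells are the glia of peripheral nerve and lie along motor and sensory axons and at the neuromuscular junction of skeletal muscle. When an axon degenerates, they are known to lower myelin genes and take on a repair state that includes Ngfr and the growth-associated protein Gap43, and to myelinate again as the axon regrows.

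The study injured the mouse tibialis anterior, a muscle of the lower leg, with notexin, a snake venom toxin that destroys myofibres, and took undamaged muscle and muscle up to 14 days after injury. Fibro-adipogenic progenitors (FAPs, the PDGFRa+ stromal cells), endothelial cells (EC), myogenic progenitors (MP) and inflammatory cells were sorted by flow cytometry, and pericytes came from a separate reporter strain. RNA sequencing of the sorted cells and of whole muscle gave 41 CCR2KO and 137 wild type libraries. CCR2KO mice lack the chemokine receptor that draws monocytes into injured muscle, and such libraries exist for FAP, EC and MP.

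The pericyte gate was CD45-/CD31-/Sca1-/NG2+ in NG2 DsRed wild type B6 mice and gave 10 libraries, 8 from days 1, 2, 3, 5 and 10 after notexin and 2 undamaged. NG2, the product of Cspg4, is a surface proteoglycan of pericytes that is also known from glial precursor cells. Which reporter-positive cells held the RNA of the members was not tested. From PDGFRa EGFP mice, the MP gate (CD45-/CD31-/a7+/VCAM+) gave 9 CCR2KO and 16 wild type (WT) libraries. The EC gate (CD45-/CD31+) gave 14 CCR2KO and 31 WT libraries, the FAP gate (CD45-/CD31-/PDGFRa EGFP+) 18 CCR2KO and 32 WT libraries, and the inflammatory gate (CD45+/CD31-) 27 WT libraries. Whole digested muscle of WT B6 mice gave 21 libraries, here called total muscle. No pericyte, inflammatory or total muscle library was CCR2KO. All of these groups except the undamaged ones received notexin, and the EGFP reporter was carried by CCR2KO and WT mice alike.

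Gene counts per library ran from 1236809 to 37740952, with a median of 13736699. By their profiles, 152 sorted libraries resembled their own gate most and 5 did not. In EC, library 3 of day 1 and library 5 of day 3 resembled FAP. In MP, library 1 of day 2 and library 1 of day 3 resembled inflammatory cells, and library 1 of day 10 resembled pericytes. In CCR2KO libraries the median Ccr2 level was 0 CPM (counts per 1000000 gene counts) in FAP, 0.0831 CPM in EC and 0 CPM in MP, against 0.938, 5.47 and 4.59 CPM in the WT libraries of the same gates. Ccr2 was at 1 CPM or more in 4 of the 41 CCR2KO libraries, and the members' genotype differences are given below without them too. Whether 2 libraries of a group are 2 animals is not labelled, so the tests weigh differences against a spread that may be technical.

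Pericyte libraries held the highest median level of all 4 members. Sox10 had a median of 343 CPM there (range 87.2 to 1237, n = 10). Its median in WT libraries was 9.33 CPM in MP (0.797 to 164.5, n = 16), 2.07 CPM in total muscle (0.875 to 4.55, n = 21) and 1.35 CPM in EC (0 to 65.7, n = 31). It was 0.239 CPM in inflammatory cells (0 to 22.1, n = 27) and 0.151 CPM in FAP (0 to 3.01, n = 32). All 10 pericyte libraries had at least 10 CPM of Sox10, as did 8 of 16 WT MP libraries, 2 of 9 CCR2KO MP libraries, 1 of 31 WT EC libraries and 1 of 27 inflammatory libraries, while no FAP library did. Only 1 library outside the pericyte gate, MP day 10 library 1, exceeded the lowest pericyte library. Sox10 had no count in 13 WT FAP libraries, where 3 counts would correspond to 0.111 to 2.35 CPM, in 5 inflammatory libraries and in 2 WT EC libraries.

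**Figure D1:**
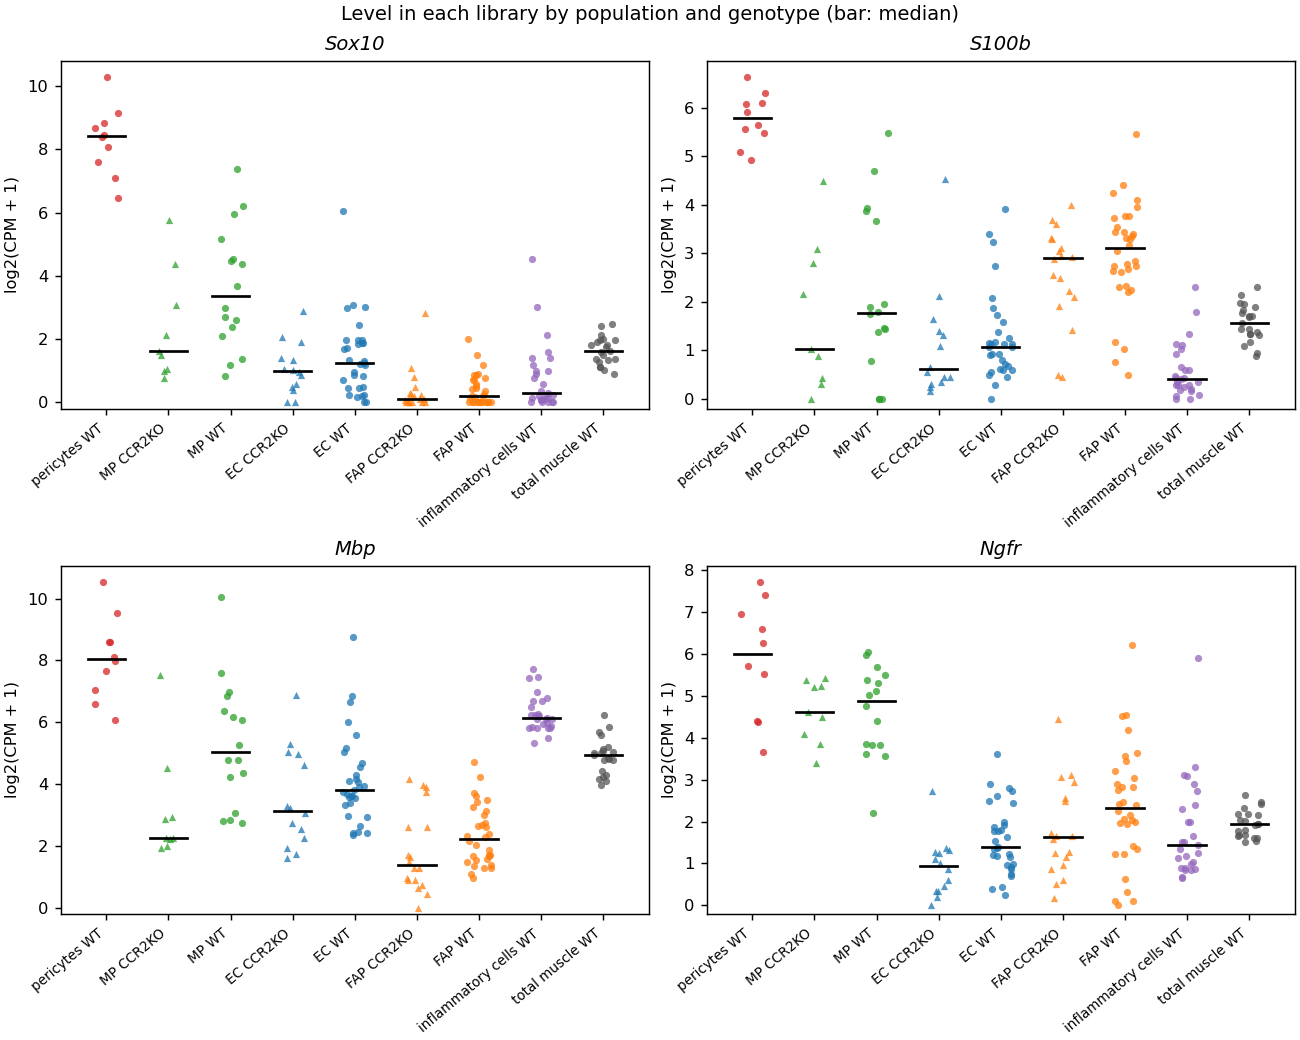
Level of each member in every library by gate and genotype, as log2(CPM + 1); each point is 1 library and the bar is the median. Pericytes have the highest median of each gene, inflammatory cells come next for Mbp, FAP for S100b and MP for Ngfr and Sox10.

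The other members followed other orders below the pericytes. Median Mbp was 265 CPM in pericytes (66.3 to 1473), and the next gate was inflammatory cells at 69.5 CPM (39.02 to 210.3), where 17 of 27 libraries exceeded the lowest pericyte library. MP followed at 32.2 CPM (5.72 to 1064), total muscle at 29.5 CPM (14.6 to 74.3), EC at 13.1 CPM (4.04 to 436) and FAP at 3.63 CPM (0.952 to 25.2). Mbp is also known for the Golli transcripts of its locus, which immune cells make, and gene-level counts do not separate these from myelin transcripts. Median S100b was 54.1 CPM in pericytes (29.5 to 98.1), 7.67 CPM in FAP (0.418 to 42.8), 2.40 CPM in MP (0 to 43.4), 1.97 CPM in total muscle (0.860 to 3.98), 1.10 CPM in EC (0 to 14.0) and 0.325 CPM in inflammatory cells (0 to 3.97). Median Ngfr was 63.2 CPM in pericytes (11.6 to 208) and 28.6 CPM in MP (3.63 to 65.01), where 13 of 16 libraries exceeded the lowest pericyte library. It was 4.02 CPM in FAP (0 to 73.5), 2.82 CPM in total muscle (1.87 to 5.20), 1.73 CPM in inflammatory cells (0.581 to 58.7) and 1.62 CPM in EC (0.188 to 11.2). For each member, the ranges of neighbouring gates in its order overlapped. Between pericytes and the next gate that overlap rested on 1 of 16 MP libraries for Sox10 and 1 of 32 WT FAP libraries for S100b. The pericyte median stood 36.7 times above the next gate for Sox10, 7.06 times for S100b, 3.81 times for Mbp and 2.21 times for Ngfr.

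Per kilobase of annotated exon, median levels in pericytes were 112 CPM for Sox10, 36.5 CPM for S100b, 31.3 CPM for Mbp and 18.3 CPM for Ngfr. On the same scale MP had 3.06 CPM of Sox10, 1.61 CPM of S100b, 3.80 CPM of Mbp and 8.29 CPM of Ngfr. On this scale Ngfr had the highest value of the members in MP, and Sox10 in pericytes. The length used is the union of all annotated exons, 8469 bases for Mbp and 3051 for Sox10. The order therefore depends on which transcripts are made, which was not tested. Inflammatory cells held 8.21 CPM per kilobase of Mbp, and FAP held 5.17 CPM per kilobase of S100b.

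Other genes of the lineage were present in the pericyte libraries alongside the members. Of 15 further Schwann lineage genes, 14 had a median of at least 1 CPM in pericytes, against 10 in MP, 9 in total muscle, 7 in EC, 5 in FAP and 5 in inflammatory cells. All 18 peripheral myelin genes did so in pericytes, against 16 in total muscle, 15 in MP, 13 in EC, 7 in inflammatory cells and 6 in FAP. In single pericyte libraries, 5919 to 13076 of all 24421 genes reached 1 CPM. The neuregulin receptor Erbb3 had a median of 164 CPM in pericytes, the cadherin Cdh19 63.7 CPM and the neural crest factor Foxd3 74.3 CPM. Of 5 oligodendrocyte-specific genes, which mark the myelinating glia of the brain, 1 had a median of at least 1 CPM there, and Opalin, Mobp, Ermn and Olig2 had a median of 0. Of 6 melanocyte genes, 2 had a median of at least 1 CPM in pericytes, Mitf at 14.8 CPM and Tyrp1 at 1.32 CPM, and Tyr and Mlana had a median of 0. All 6 perineurial genes, a list for cells of the nerve sheath, had a median of at least 1 CPM in pericytes, against 3 to 5 in the other gates. Markers of pericytes and smooth muscle summed to 13660 to 43360 CPM in the pericyte libraries, with a median of 25770 CPM. Several genes on these lists, such as Pmp22 and Egr2, are known from other cell types too.

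S100b and Ngfr, like Mbp, ordered the gates below the pericytes differently from Sox10. The upstream sequences of S100b and Ngfr are shown here. Whether sequence relates to the order of gates was not tested. S100b lies on chromosome 10 (76253853 to 76261159, plus strand), Ngfr on chromosome 11 (95568818 to 95587735, minus strand) and Sox10 on chromosome 15 (79154908 to 79165240, minus strand) in GRCm38. These spans follow another annotation than the RefSeq starts used below. The Ngfr window below therefore overlaps the Ngfr span, from 95587699 to 95587735. The 250 bases before the RefSeq start were taken from chr10:76253586-76253835 for S100b and chr11:95587699-95587948 for Ngfr (GRCm38.p6, each on the strand of its gene, 5′ to 3′), with CCAAT or its reverse complement ATTGG in capitals.
S100b: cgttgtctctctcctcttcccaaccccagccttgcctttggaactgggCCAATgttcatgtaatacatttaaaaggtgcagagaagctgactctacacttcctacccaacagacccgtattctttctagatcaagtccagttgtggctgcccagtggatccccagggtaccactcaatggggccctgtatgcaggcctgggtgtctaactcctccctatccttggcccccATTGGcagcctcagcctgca
Ngfr: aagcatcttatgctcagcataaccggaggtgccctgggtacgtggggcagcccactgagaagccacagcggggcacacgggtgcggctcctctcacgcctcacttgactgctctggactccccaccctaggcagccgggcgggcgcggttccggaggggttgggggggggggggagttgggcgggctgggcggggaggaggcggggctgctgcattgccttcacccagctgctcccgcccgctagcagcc
The S100b window held 53.6% GC and 2 CpG dinucleotides, and the Ngfr window 70.4% GC and 16 CpG dinucleotides, against a median GC of 52.4% over 32851 promoters. CCAAT occurred on either strand 2 times before S100b and 0 times before Ngfr, and was present in 33.8% of all promoter windows of this length. The Sox core letters ACAAAG or ACAATG, searched on both strands, were in neither window and in 25.2% of all windows.

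Library codes in the submitters' descriptions recur across gates, and 40 codes covered at least 2 gates of the same day and genotype. In the 5 that included a pericyte library, that library had the highest Sox10, S100b and Mbp of its code in 5 of 5 and the highest Ngfr in 4 of 5. At day 3, a code shared by 4 gates had 136 CPM of Sox10 in pericytes, 0.381 CPM in EC, 0.239 CPM in inflammatory cells and 0.0952 CPM in FAP. That EC library is 1 of the 2 closest to FAP. The exception for Ngfr was at day 1, where pericytes had 45.2 CPM and inflammatory cells of the same code 58.7 CPM. Since the pericyte gate used another mouse strain, a shared code cannot be read as a shared animal. MP held the most Sox10 and the most Ngfr in each of the 21 codes that included it, none of which held a pericyte library. FAP held the most S100b in 26 of 37 codes that included it, and inflammatory cells held the most Mbp in 15 of 23.

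The members did not keep a single proportion to each other across gates. Among CCR2KO and WT libraries with at least 20 Sox10 counts, the median ratio of Mbp to Sox10 counts was 0.872 in pericytes (0.286 to 2.71, 10 libraries), 2.03 in MP (17 libraries), 6.12 in EC (18 libraries), 12.6 in total muscle (16 libraries), 32.7 in inflammatory cells (6 libraries) and 4.12 in FAP (4 libraries). The median ratio of S100b to Sox10 counts was 0.173 in pericytes and 0.264 in MP, against 3.04 in FAP. For Ngfr the median ratio was 0.256 in pericytes (0.0207 to 1.91), 1.56 in MP and 5.91 in FAP. Only 4 of 50 FAP libraries qualified. Counts summed over all libraries of a gate gave a ratio of Mbp to Sox10 of 1.05 in pericytes, 3.72 in MP, 10.1 in EC, 14.1 in total muscle, 51.0 in inflammatory cells and 11.5 in FAP. Summed in the same way, the ratio of S100b to Sox10 was 0.159 in pericytes, 0.272 in MP and 17.5 in FAP, and that of Ngfr was 0.166 in pericytes, 1.08 in MP and 15.3 in FAP.

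**Figure D2:**
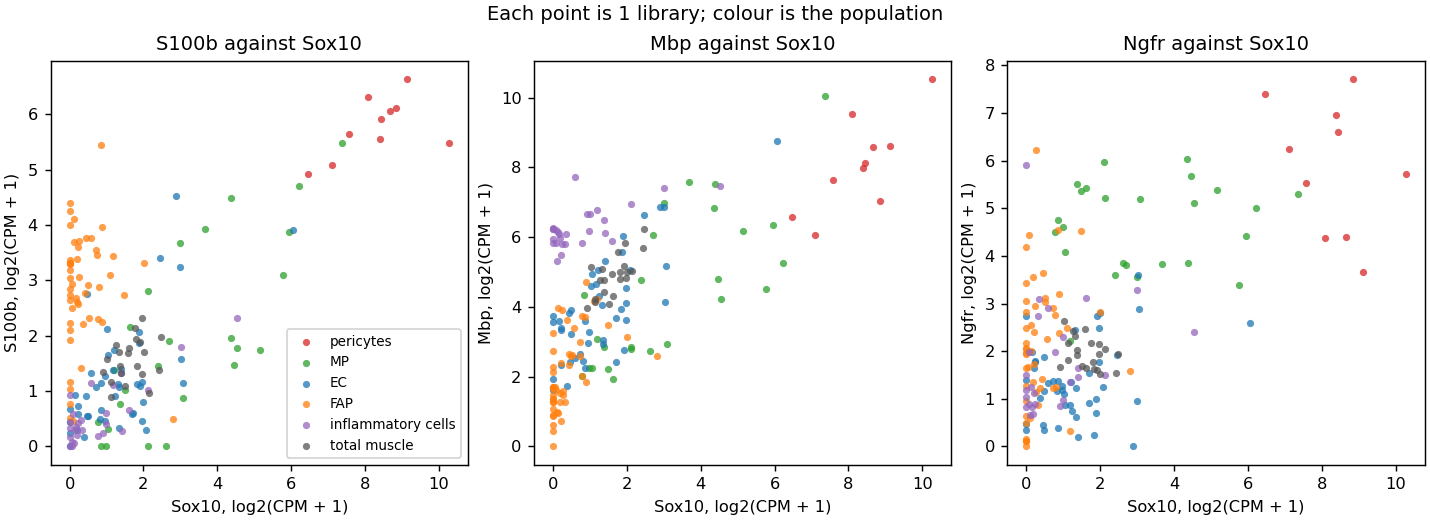
S100b, Mbp and Ngfr against Sox10 in every library, each axis as log2(CPM + 1), coloured by population. Inflammatory libraries lie high in Mbp at Sox10 near 0, FAP libraries lie high in S100b at Sox10 near 0, and MP libraries lie high in Ngfr over a wide range of Sox10.

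Across the 10 pericyte libraries, which share a gate and differ in depth, Sox10 varied with Mbp (Pearson r = 0.774) and less with S100b (r = 0.536), and Ngfr ran the other way from Sox10 (r = -0.313), Mbp (r = -0.563) and S100b (r = -0.621). The genes most like Sox10 over these libraries, by r of log2(CPM + 1) among 10143 genes, were Matn4 (0.971), Gpr37l1 (0.951), Vwa1 (0.933) and Atp6v0e2 (0.929), followed by Acsbg1, Chadl, Pcbp4 and Lgi4. Those most like Mbp were Prx (0.939), a scaffold protein of the myelinating Schwann cell, Zfyve21 (0.932) and Pllp (0.924), and those most like S100b included Ldlrad3 (0.905) and Ttyh1 (0.897). Those most like Ngfr were Cd248 (0.928), a stromal and pericyte surface protein, P3h3 (0.920), Tubb3 (0.920) and Egflam (0.919), and its first 8 also held the DNA replication genes Chaf1b and Mcm5. Over all sorted libraries and 12915 genes, where differences between gates dominate, the nearest to Sox10 were Gpr37l1 (0.970), Rasgef1c (0.950) and Foxd3 (0.945). Nearest to Mbp was Mag (0.871), a myelin adhesion protein, nearest to S100b was Fxyd1 (0.840), and nearest to Ngfr was Stard10 (0.735).

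Within the pericyte gate, Sox10 and Mbp were lower in every library of days 1 to 3 than in either undamaged library, while Ngfr was highest on days 2 and 3. None of these differences passed the test. Sox10 had 1237 and 560.2 CPM in undamaged pericytes, 191 CPM on day 1, 87.2 and 337 CPM on day 2, 458 and 136 CPM on day 3, 348 CPM on day 5, and 271 and 406 CPM on day 10. Mbp had 1473 and 388 CPM undamaged, a level on day 1 between those of the day 2 libraries, 95.4 and 253 CPM on day 2, 131 and 66.3 CPM on day 3, 276 CPM on day 5, and 734 and 385 CPM on day 10. The lowest libraries of both genes were of days 2 and 3, and by day 10 Mbp overlapped the undamaged libraries while Sox10 did not. S100b had 43.7 and 98.1 CPM undamaged and 29.5 to 78.4 CPM at all later days, with overlap. Ngfr had 51.4 and 11.6 CPM undamaged, 45.2 CPM on day 1, 167 and 123 CPM on day 2, 208 and 74.9 CPM on day 3, 95.6 CPM on day 5, and 19.7 and 19.9 CPM on day 10. Every library of days 2 to 5 exceeded both undamaged libraries in Ngfr, and both day 10 libraries lay between them.

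**Figure D3:**
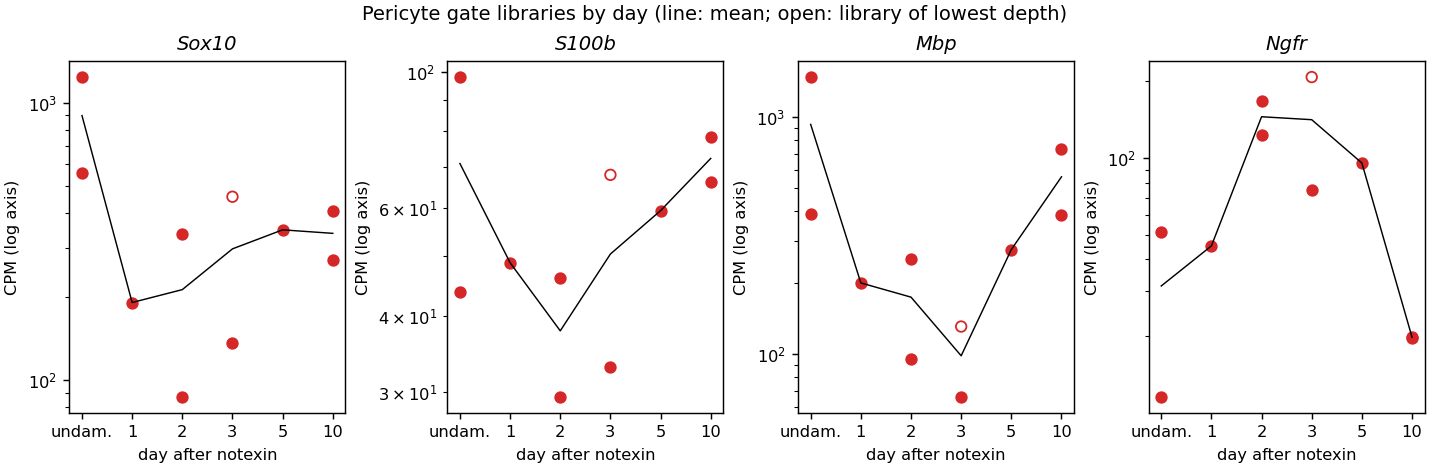
CPM of the 4 members in each pericyte library by day after notexin, on log axes; the line joins the mean of each day and the open circle is the library of lowest depth. The highest library of Sox10 and of Mbp is undamaged, and Ngfr is highest on days 2 and 3.

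Called here means a Benjamini-Hochberg adjusted p under 0.05 in edgeR's quasi-likelihood test over all genes, comparing the mean of the days with undamaged libraries, and all day comparisons use WT libraries alone. In days 1 to 3 against undamaged pericytes (5 against 2 libraries), 1 of 15127 genes was called (0.00661%) and it was not a member. That count was 1716 without day 3 library 2, 70 without day 3 library 1 and 0 when either undamaged library was left out. The log2 fold change was -2.21 ± 0.714 (SE) for Sox10 (adjusted p = 0.574, unadjusted p = 0.00581), and -2.90 ± 0.716 for Mbp (adjusted p = 0.356, unadjusted p = 0.000642). It was -0.78 ± 0.980 for S100b (adjusted p = 1) and 1.34 ± 1.05 for Ngfr (adjusted p = 1). In days 5 to 10 (3 against 2 libraries, 0% of genes called), Sox10 differed by -1.60, Mbp by -1.48, S100b by -0.20 and Ngfr by 0.23 on the log2 scale, each at an adjusted p of 1. Leaving out 1 library at a time moved the difference of days 1 to 3 between -3.63 and -1.45 for Mbp, -2.76 and -1.37 for Sox10, and 0.58 and 2.98 for Ngfr. The value of Mbp was -1.45 without undamaged library 1 (adjusted p = 1) and -2.75 without day 3 library 2 (adjusted p = 0.0431). Within libraries whose code begins with R52, a mark the labels do not explain and all total muscle libraries carry, Ngfr differed by 2.65 and Mbp by -1.67. That set holds undamaged library 2, which had the lowest Ngfr of the gate (11.6 CPM), so these differences lean on 1 library.

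Of the 18 further myelin genes tested in pericytes, 0 were called in days 1 to 3, with a median log2 fold change of -1.97 against -0.23 over all genes, and 0 were called in days 5 to 10 (median -0.23, against 0.13). The 14 lineage genes tested had a median of -0.31 in days 1 to 3 and 0.40 in days 5 to 10, and the 13 repair genes a median of 0.31 and then 0.85. Gap43, a protein of growing axons and repair Schwann cells, was picked from the repair genes after its values were seen. It had 0 and 0.0639 CPM in undamaged pericytes, 10.7 CPM on day 1, 58.1 and 28.7 CPM on day 2, and 0 and 7.45 CPM on day 3. The other repair genes did not all follow it. Atf3, L1cam and Ncam1 exceeded the higher undamaged library in no library of days 1 to 3. Gdnf and Runx2 exceeded it in every library of days 1 and 2. The day 3 library without Gap43 had 1236809 counts and 7625 genes with a count, against 12757 to 15901 genes in the other pericyte libraries. Leukocyte markers summed to 108 to 2020 CPM in pericytes of days 1 to 3, 2.02 to 39.4 CPM on days 5 to 10, and 4.28 and 15.6 CPM in undamaged pericytes. Their part in the differences was not tested.

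In total muscle, Sox10 fell in days 1 to 7 and Mbp in days 1 to 14 with TMM scaling (edgeR's adjustment for library composition), while neither was called in days 1 to 3 on library totals, where Mbp was at 0.07. With TMM scaling 6 to 11 of 18 further myelin genes fell in each phase, where 12% to 34.1% of all genes were called as lower. S100b and Ngfr were not called. A bulk level cannot tell fewer Schwann cells from less RNA per cell. Sox10 had 4.38 and 2.78 CPM in undamaged muscle, 4.55 and 3.40 CPM on day 1, 2.88 and 2.39 CPM on day 2, 1.505 and 1.02 CPM on day 3, 1.40 and 1.99 CPM on day 4, and 0.875 and 1.59 CPM on day 5. It then had 1.60, 2.07 and 1.19 CPM on day 6, 2.50 and 2.91 CPM on day 7, 1.18 and 1.83 CPM on day 10, and 2.53 and 3.01 CPM on day 14. By these library totals, day 1 lay within or above the undamaged range and days 3 to 6 lay below it, and on days 7 and 14 1 library each exceeded the lower undamaged one. Mbp had 50.8 and 35.4 CPM in undamaged muscle, 74.3 and 31.8 CPM on day 1, 56.1 and 47.0 CPM on day 2, 32.9 and 34.1 CPM on day 3, and 14.6 to 31.04 CPM in every library from day 4 to day 14. Every library from day 3 on was below both undamaged libraries.

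**Figure D4:**
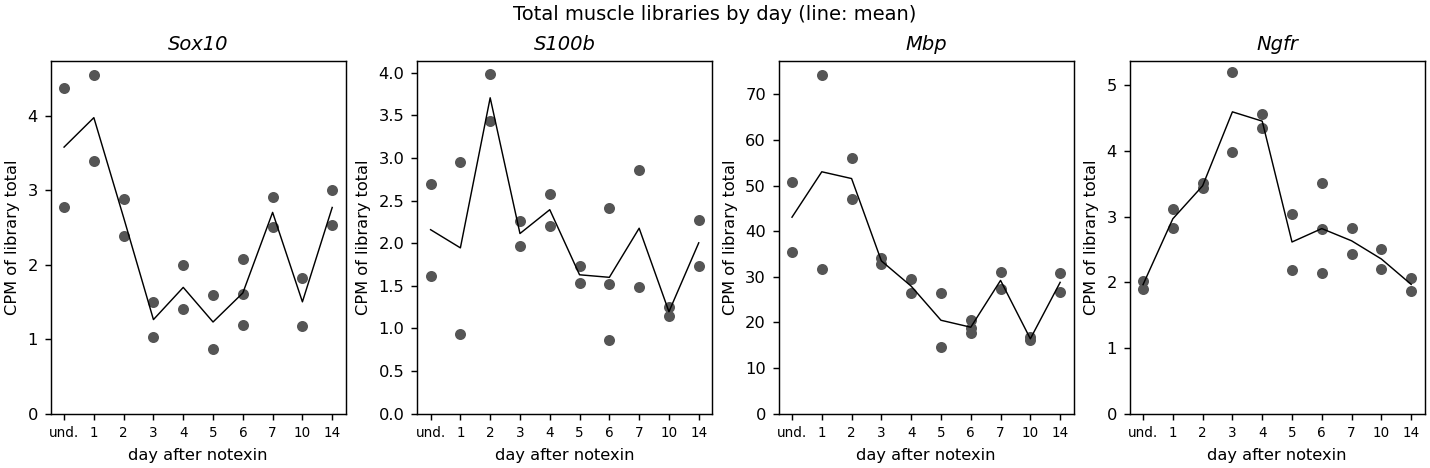
CPM of library total for the 4 members in each total muscle library by day after notexin; the line joins the mean of each day. Sox10 and Mbp are lowest between days 3 and 10, and Ngfr is highest on days 3 and 4 at 3.99 to 5.20 CPM.

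Scaled by the trimmed mean of M values (TMM), Sox10 averaged 2.01 ± 0.913 CPM on days 1 to 3 (SD, n = 6) and 4.41 ± 1.37 CPM in undamaged muscle (n = 2), a log2 fold change of -1.29 ± 0.262 (SE; edgeR adjusted p = 0.00026). Mbp averaged 35.3 ± 11.8 CPM on days 1 to 3 and 53.1 ± 13.1 CPM in undamaged muscle, a log2 fold change of -0.65 ± 0.216 (edgeR adjusted p = 0.013). These 2 of 4 members stand against 69.8% of genes called in this comparison, 34.1% as lower and 35.7% as higher. In days 4 to 7 (9 against 2 libraries, 55.3% called, 26.6% lower and 28.8% higher) Sox10 differed by -1.33 ± 0.254 (edgeR adjusted p = 0.000268) and Mbp by -1.16 ± 0.205 (adjusted p = 0.000128). In days 10 to 14 (4 against 2 libraries, 26.5% called, 12% lower and 14.5% higher) Mbp differed by -0.95 ± 0.236 (adjusted p = 0.00672) and Sox10 by -0.77 ± 0.282 (adjusted p = 0.0501). S100b differed by -0.52, -0.49 and -0.47 and Ngfr by 0.17, 0.33 and 0.16 in these phases, with adjusted p of 0.222 to 0.668. Scaled to library totals without TMM, which moved the median of all genes by 0.732 in days 1 to 3, Sox10 differed by -0.58 (adjusted p = 0.0621), Mbp by 0.07 (adjusted p = 0.807) and Ngfr by 0.87 (adjusted p = 0.00228). The calls of days 4 to 7 held on that scale, at -1.03 for Sox10 (adjusted p = 0.00338) and -0.86 for Mbp (adjusted p = 0.00374). Without undamaged library 1, Mbp was at -0.37 (adjusted p = 0.28) in days 1 to 3 and at -0.68 (adjusted p = 0.147) in days 10 to 14. Without day 3, Mbp was at -0.44 (adjusted p = 0.0986) in days 1 to 3, and without day 10 at -0.75 (adjusted p = 0.0669) in days 10 to 14.

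Of 18 further myelin genes in total muscle, 10 were lower and 2 higher in days 1 to 3, 11 lower and 2 higher in days 4 to 7, and 6 lower and 0 higher in days 10 to 14. Their median log2 fold changes were -0.81, -0.95 and -0.82, against 0.03 to 0.04 over all genes. The shares of all genes called in these phases were 34.1%, 26.6% and 12% as lower, and 35.7%, 28.8% and 14.5% as higher. In days 1 to 3 the log2 difference was -1.05 for Prx and -1.11 for the myelin raft protein Mal. Egr2, a master regulator of myelination that is also known from activated immune cells, was higher in days 1 to 3 by 2.60. Of 12 lineage genes, 4, 5 and 3 were lower and 2, 1 and 1 higher over the successive phases, with Erbb3 higher by 1.19 in days 4 to 7. Of 9 repair genes, 3, 3 and 1 were higher and 2, 3 and 3 lower. They included the adhesion genes Ncam1 and Cdh2, which myogenic cells also use and which were higher by 1.54 and 2.52 in days 1 to 3, and Atf3, a stress-response factor, which was lower in days 10 to 14 (-2.98). The 6 myofibre genes of the list summed to 75400 to 94400 CPM in days 1 to 3 and to 152000 and 153000 CPM in undamaged muscle. All 6 leukocyte markers were higher in each phase. The part of these changes in the members' levels was not tested.

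In WT FAP, the sort with the least Sox10, Mbp fell in days 1 to 3. Sox10 and S100b were called as lower over the same days only with day 1 included, and no member was called in days 4 to 14. Mbp had 0.952 to 7.83 CPM on days 1 to 3 (median 1.95, n = 16), against 11.2, 12.1 and 17.7 CPM in undamaged FAP. The groups did not overlap, and the log2 fold change was -2.35 ± 0.407 (SE; edgeR adjusted p = 9.15e-05). S100b had 0.418 to 18.02 CPM on days 1 to 3 (median 8.48), against 3.63, 9.81 and 42.8 CPM in undamaged FAP, with a log2 fold change of -2.11 ± 0.390 (adjusted p = 0.000201). By day, S100b had a median of 0.872 CPM on day 1, 8.69 CPM on day 2 and 11.4 CPM on day 3, against 9.81 CPM in undamaged FAP, so the low libraries were those of day 1. Without day 1, S100b was at -0.90 (adjusted p = 0.118), Sox10 at -1.98 (adjusted p = 0.163) and Mbp at -2.20 (adjusted p = 0.000423), and without undamaged library 1 S100b was at -0.57 (adjusted p = 0.316). Sox10 was at 0 in 9 of 16 libraries on days 1 to 3, including all 4 of day 1, and reached 3.01 CPM in 1 of them, against 0.294, 0.816 and 1.27 CPM in undamaged FAP. Its log2 fold change of -3.46 ± 1.02 (adjusted p = 0.0129) rests on few counts, depends on the prior count for the day without any count and is no bound, and without undamaged library 3 its adjusted p was 0.0725. The 3 called members stand against 27.9% of genes called, 14.8% as lower and 13.2% as higher. Ngfr was at -1.67 ± 0.838 (adjusted p = 0.139), with 0 to 73.5 CPM on days 1 to 3 and 0.255, 1.32 and 22.3 CPM in undamaged FAP. Without day 3 library 4 it was at -2.12 (adjusted p = 0.0321), without undamaged library 1 at 1.54 (adjusted p = 0.344).

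Among R52 libraries alone, S100b in FAP differed by -0.51 (adjusted p = 0.335) and Mbp by -2.96 (adjusted p = 0.000101), and among the libraries without R52, where 1 undamaged library is left, S100b differed by -3.28 (adjusted p = 0.00791), Mbp by -2.25 (adjusted p = 0.0231) and Sox10 by -2.89 (adjusted p = 0.526). In days 4 to 14 of FAP (13 against 3 libraries, 9.58% of genes called, 5.49% as lower and 4.08% as higher), Mbp differed by -1.35 (adjusted p = 0.0599), S100b by -1.15 (adjusted p = 0.0936), Sox10 by -2.36 (adjusted p = 0.309) and Ngfr by -0.22 (adjusted p = 0.94). Of 18 further myelin genes, 10 were lower in days 1 to 3, with a median of -1.99 against -0.01 over all genes. Ncmap, a protein of noncompact myelin, was lower at a log2 fold change of -4.69, Prx at -1.08 and Pmp22 at -1.05. Of 12 lineage genes 3 were lower, among them Cdh19 at -3.30. The shares over all genes in days 1 to 3 were 14.8% as lower and 13.2% as higher. Of 11 repair genes, Runx2 (2.75) and Cdh2 (1.92), both known from mesenchymal cells, were among 3 that were higher, and Atf3 (-2.01) was the 1 that was lower.

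In WT EC, S100b and Mbp fell in days 1 to 3, again with myelin genes, and no member was called in days 4 to 14. Mbp had 4.04 to 32.1 CPM on days 1 to 3 (median 10.2, n = 14), against 63.9, 98.8, 46.9 and 115 CPM in undamaged EC. The groups did not overlap, and the log2 fold change was -2.88 ± 0.570 (SE; edgeR adjusted p = 0.00248). S100b had 0.468 to 5.72 CPM on days 1 to 3 (median 0.918), against 3.21, 9.54, 2.67 and 8.41 CPM in undamaged EC, with a log2 fold change of -2.34 ± 0.607 (adjusted p = 0.0156). These 2 members stand against 10% of genes called, 4.81% as lower and 5.19% as higher. Sox10 had 0 to 2.95 CPM (median 1.12) on days 1 to 3, against 2.69, 4.49, 2.67 and 6.96 CPM in undamaged EC, and differed by -1.65 (adjusted p = 0.253). Ngfr differed by 0.97 (adjusted p = 0.41). Among R52 libraries alone Mbp differed by -3.71 (adjusted p = 0.000756), S100b by -2.10 (adjusted p = 0.0878) and Sox10 by -2.43 (adjusted p = 0.02). Without R52 libraries Mbp differed by -2.29 (adjusted p = 0.312) and S100b by -2.43 (adjusted p = 0.288). The S100b difference was -1.88 without day 1 (adjusted p = 0.0559) and -2.01 without undamaged library 4 (adjusted p = 0.0807).

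Of 18 further myelin genes in EC, 8 were lower in days 1 to 3 and none higher, with a median of -1.87 against 0.03 over all genes. In those days Mal differed by -3.33 on the log2 scale, Drp2 by -2.40 and Cldn19 by -2.13. Drp2 had its highest WT median in MP, at 311 CPM, against 48.05 CPM in pericytes and 4.70 CPM in EC. None of 13 lineage genes was called. All genes together had 4.81% called as lower and 5.19% as higher in days 1 to 3. Markers of other cells moved in the same days, with 4 of 5 adipocyte markers, 3 of 6 satellite cell markers and 1 of 6 myofibre genes lower, and their part was not tested. By days 4 to 14 (13 against 4 libraries, 0.647% of genes called, 0.404% as lower and 0.244% as higher), S100b was at -2.45 (adjusted p = 0.0655), Mbp at -1.75 (adjusted p = 0.187), Sox10 at -0.63 (adjusted p = 0.839) and Ngfr at 1.00 (adjusted p = 0.603). EC day 7 library 2 stood apart with 65.7 CPM of Sox10, 436 CPM of Mbp, 14.0 CPM of S100b and 30900 CPM of myofibre genes. Without it, Mbp was at -2.39 (adjusted p = 0.0108) and S100b at -2.89 (adjusted p = 0.0148).

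Sox10 ran from 0.797 to 164.5 CPM over WT MP libraries, and no member was called after injury. Sox10 had 6.95, 11.7 and 5.47 CPM in undamaged MP, 1.29 and 73.2 CPM on day 1, 19.6 and 5.13 CPM on day 2, and 4.25 and 0.797 CPM on day 3. Later it had 3.33 CPM on day 4, 1.60 CPM on day 5, 34.6 CPM in the higher library of day 6, 61.0 CPM on day 7, and 164.5 and 22.4 CPM on day 10. Libraries of 1 day could thus differ more than days did, and every WT library from day 6 on exceeded all 3 undamaged WT ones. CCR2KO MP did not share this, with 2.09 CPM on day 6 and 1.81 and 3.35 CPM on day 10, against 19.9 CPM in the undamaged CCR2KO library. Ngfr had 3.63 to 65.01 CPM on days 1 to 3 (median 19.6, n = 6) and 20.2 to 61.7 CPM on days 4 to 10 (median 40.7, n = 7), against 10.8, 13.2 and 13.1 CPM in undamaged MP. The later days did not overlap the undamaged libraries, yet the log2 fold change of 1.54 ± 0.668 (SE) had an edgeR adjusted p of 0.193, in a comparison where 5.7% of genes were called, 3.18% as higher and 2.52% as lower. With only these phases in the fit the adjusted p was 0.0152, and among R52 libraries alone the difference was 1.72 (adjusted p = 0.00425).

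Mbp in MP had 5.72 to 113 CPM on days 1 to 3 and 5.91 to 1064 CPM on days 4 to 10, against 125, 190.2 and 65.6 CPM in undamaged MP. Its log2 fold change was -1.90 (adjusted p = 0.158) in days 1 to 3, where 39% of genes were called (21% as lower and 17.9% as higher), and -1.83 (adjusted p = 0.313) in days 4 to 10. S100b was at -1.77 (adjusted p = 0.282) and -2.82 (adjusted p = 0.329), Sox10 at 0.49 (adjusted p = 0.743) and 0.85 (adjusted p = 0.68), and Ngfr in days 1 to 3 at 1.02 (adjusted p = 0.236). MP day 10 library 1, the one closest to pericytes, had 1064 CPM of Mbp, 43.4 CPM of S100b, 12940 CPM of pericyte and smooth muscle markers and 36880 CPM of myofibre genes. Without the 3 MP libraries closest to another gate, on the log2 scale Mbp fell by 3.22 in days 1 to 3 (adjusted p = 0.00187) and by 2.89 in days 4 to 10 (adjusted p = 0.00521), and S100b fell by 6.42 in days 1 to 3 (adjusted p = 0.00697). In that setting neither day 2 nor day 3 kept a library with an S100b count. The size of 6.42 therefore depends on the prior count and is no bound.

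Of 18 further myelin genes in MP, 7 were lower in days 1 to 3, with a median of -2.78 against -0.16 over all genes, and 0 were called in days 4 to 10 (median -1.70, against -0.11). Ugt8a, an enzyme of myelin galactolipid synthesis, was lower at a log2 fold change of -8.08, Mal at -5.23, the glial connexin Gjc3 at -3.70 and Egr2 at -3.15. Of 14 lineage genes 3 were lower, Sorcs1 at -6.42, the sodium channel Scn7a at -3.56 and Egr2. Over all genes, 21% were called as lower and 17.9% as higher in days 1 to 3. Of 14 repair genes 2 were higher, Runx2 by 4.86 and Cdh2 by 3.43, and 4 were lower, among them Bdnf at -4.29 and Jun at -3.53. Ugt8a had no count in any library of days 1 and 3, and Gjc3, Sorcs1 and Bdnf had none on day 3. The sizes given for these genes therefore depend on the prior count and are no bounds. In days 4 to 10 Runx2 (3.98) and Cdh2 (3.89) were higher and Jun (-2.33) was lower. Leukocyte markers summed to 53.0 to 4530 CPM on days 1 to 3 and 12.8 to 21.5 CPM in undamaged MP, with 6 of 6 higher, and 4 of 6 satellite cell markers were lower and 2 higher. Their part was not tested.

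In inflammatory cells, Sox10, S100b and Mbp fell in days 1 to 3 and no member was called in days 4 to 14. Mbp had 39.02 to 101 CPM on days 1 to 3 (median 57.1, n = 14), against 170.4 and 210.3 CPM in undamaged muscle. The groups did not overlap, and the log2 fold change was -1.18 ± 0.258 (SE; edgeR adjusted p = 0.00179). S100b had 0 to 0.583 CPM (median 0.246), against 2.47 and 1.20 CPM undamaged, and differed by -2.35 ± 0.798 (adjusted p = 0.0302). Sox10 had 0 to 2.04 CPM (median 0.130) and no count in 3 of 14 libraries, against 7.05 and 0.505 CPM undamaged, and differed by -3.29 ± 1.04 (adjusted p = 0.0211). These 3 members stand against 29.6% of genes called, 18.9% as lower and 10.7% as higher. Each call rested on the undamaged pair. Without undamaged library 1, Sox10 was at -0.27 (adjusted p = 0.935) and S100b at -1.64 (adjusted p = 0.3), and without undamaged library 2, S100b was at -2.77 (adjusted p = 0.0905) and Mbp at -1.04 (adjusted p = 0.066). Without day 2, Sox10 was at -2.56 (adjusted p = 0.117) and S100b at -2.32 (adjusted p = 0.0614), and without day 3 S100b was at -2.11 (adjusted p = 0.0639).

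Within R52 libraries, inflammatory Mbp differed by -1.35 (adjusted p = 0.0207), S100b by -1.59 (adjusted p = 0.532) and Sox10 by -0.21 (adjusted p = 0.961), and within the others Mbp differed by -1.10 (adjusted p = 0.141), S100b by -2.79 (adjusted p = 0.0858) and Sox10 by -4.47 (adjusted p = 0.0281). Each of these has 1 undamaged library. Ngfr differed by -0.29 (adjusted p = 0.84) in days 1 to 3. In days 4 to 14 it had 0.596 to 4.29 CPM (median 1.38, n = 11), below the 8.79 and 6.50 CPM of undamaged inflammatory cells, but its log2 fold change of -2.06 ± 0.857 had an adjusted p of 0.0995. In the same days (16.6% of genes called, 11.5% as lower and 5.08% as higher) Mbp differed by -0.70 (adjusted p = 0.0871), S100b by -1.41 (adjusted p = 0.274) and Sox10 by -1.54 (adjusted p = 0.378). Of 18 further myelin genes, 10 were lower and 1 higher in days 1 to 3, with a median of -2.93 against -0.20 over all genes. Prx was lower at -3.05, and Egr2 was the 1 that was higher, by 1.05. Later, in days 4 to 14, 3 were lower, with Prx at -1.81. Of 12 lineage genes 3 were lower and 2 higher in days 1 to 3, when 18.9% of all genes were called as lower and 10.7% as higher. Myofibre genes were lower too (5 of 6), and their part was not tested.

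**Figure D5:**
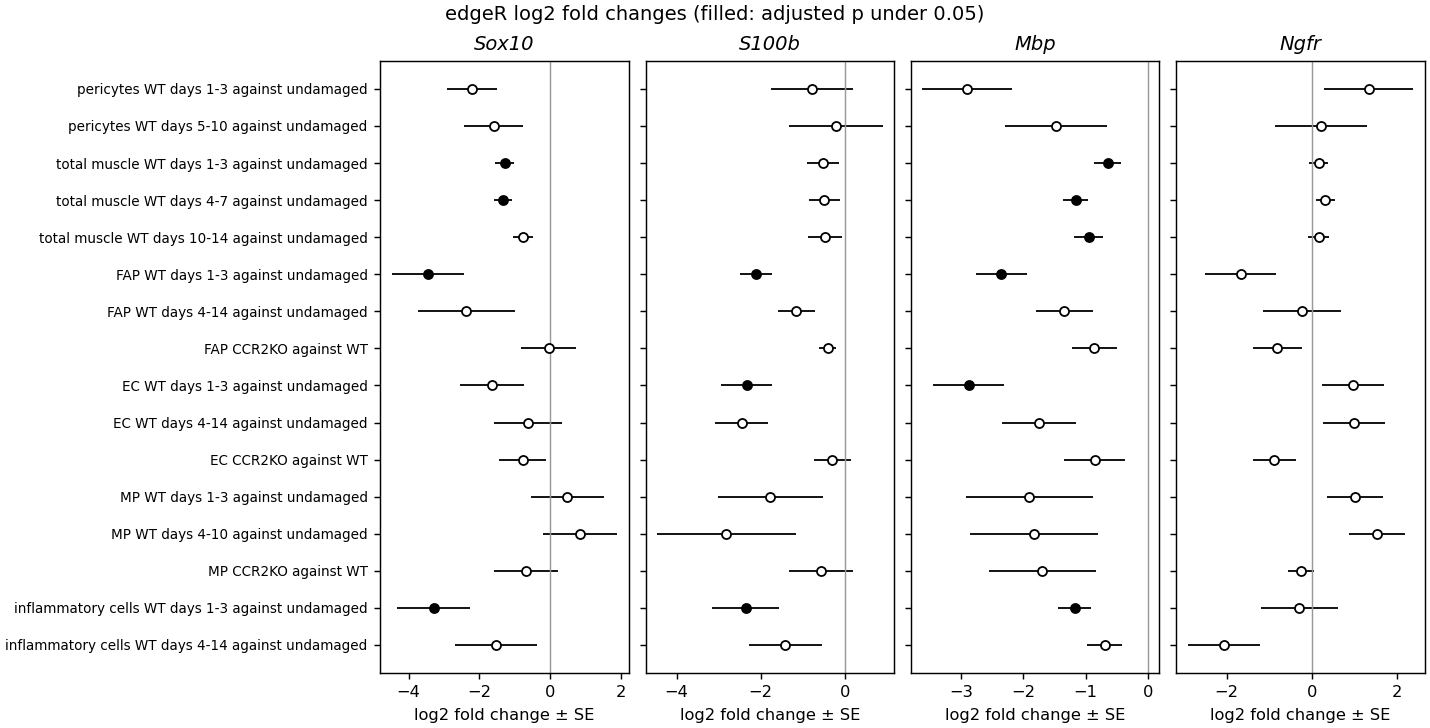
edgeR log2 fold change ± SE of each member in every day and genotype comparison; filled points have an adjusted p under 0.05. With TMM scaling Mbp lies below 0 in all 16 comparisons, the one of total muscle in days 1 to 3 being at 0.07 on library totals, and Ngfr has no filled point.

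The CCR2KO libraries allow the members to be compared with WT in 3 gates over the days both genotypes share. No member was called in any of them. Median Mbp in all libraries was 1.60 CPM in CCR2KO FAP (0 to 16.9, n = 18) and 3.63 CPM in WT FAP (0.952 to 25.2, n = 32), and the log2 fold change was -0.86 ± 0.359 (SE; edgeR adjusted p = 0.223). In EC it was 7.79 CPM in CCR2KO libraries (2.07 to 116, n = 14) and 13.1 CPM in WT libraries (4.04 to 436, n = 31), a log2 fold change of -0.85 ± 0.491 over 14 and 29 libraries (adjusted p = 0.413). In MP it was 3.77 CPM in CCR2KO libraries (2.79 to 182, n = 9) and 32.2 CPM in WT libraries (5.72 to 1064, n = 16), a log2 fold change of -1.69 ± 0.855 over 9 and 13 libraries (adjusted p = 0.404). The genotypes overlapped in each gate, and over all genes 2.14% were called in FAP (1.17% higher and 0.962% lower), 0.0797% in EC (0.0532% higher and 0.0266% lower) and 0.00683% in MP. Sox10 differed by -0.04 in FAP (adjusted p = 0.987), -0.77 in EC (adjusted p = 0.597) and -0.68 in MP (adjusted p = 0.76). Ngfr differed by -0.81, -0.87 and -0.25 and S100b by -0.40, -0.29 and -0.55 in the same order, with adjusted p of 0.337 to 0.786. Without the 4 CCR2KO libraries at 1 CPM or more of Ccr2, no member was called either, and Mbp was at -0.96 in FAP (adjusted p = 0.119), -0.74 in EC (adjusted p = 0.589) and -1.97 in MP (adjusted p = 0.488). In the same order of gates Sox10 was then at -0.19, -0.59 and -0.89, S100b at -0.41, -0.35 and -0.91, and Ngfr at -0.80, -0.87 and -0.34, with adjusted p of 0.331 to 0.955. Of the further myelin genes 0 were called in FAP, with a median of -0.31 against 0.01 over all genes, and 2 repair genes were higher, Ncam1 by 0.95, in all libraries of the comparison.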

How the data were processed

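The files hold raw gene counts, deposited by the authors as whole-number counts per gene and library in 9 tables of 24421 genes. Per the submitters' processing notes, bcl2fastq, Bowtie and STAR were used with the mm10 build, and per the labels' protocols libraries were made with a stranded mRNA kit and sequenced as paired reads. The sources used here do not give the counting program, the strand setting or the gene models, so genes that overlap, have an antisense partner or have a near-identical copy are uncertain. Reads assigned to no feature made up 3.09 to 57.0% of a column (median 7.62%) and were left out of library totals. Gene counts per library ran from 1236809 to 37740952, and limits from a count of 0 (3 counts) cover counting error only.

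Members are the table rows of the 4 symbols. The members, gene lists and comparisons were chosen with earlier results of these data known. Levels are CPM, counts per 1000000 gene counts of a library. Day and genotype differences were tested per gate with edgeR 4.0.16 in R 4.3.3 (quasi-likelihood test, TMM scaling, filterByExpr, Benjamini-Hochberg adjustment over all genes tested, threshold 0.05). In the day comparisons each day had its own mean, and a phase is the mean of its day means minus the undamaged mean, both of WT libraries. The genotype comparisons fitted a mean per day plus 1 genotype effect, taken as the same on all days. Groups came from the sample titles. Besides the 4 members, at most 4 called genes per list and comparison are named, ranked by the size of the log2 fold change among genes reaching 5 CPM on the higher side, and the 8 genes of most similar pattern to each member among those with at least 10 CPM in at least 3 libraries. Genes named for their level in the pericyte gate, and Gap43, were chosen after their values were seen. The alternatives were DESeq2 1.42.0, other scalings and filters, a replicate block, the R52 code, single phases, and leaving out libraries or days. The edgeR steps were tested on simulated data. Tables were read with Python 3.11.15, numpy 2.4.6 and pandas 2.3.3, and figures drawn with matplotlib 3.10.9. Of 169 pairs of libraries of 1 group, none agreed within sampling noise (lowest chi-square per gene 2.59). Some genes that the rule for named genes selects are not reported here.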

Additional observations from a re-analysis of the deposited data

Results flagged for a closer look

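The 4 members were examined in 9 groups of 4 to 6 libraries of 1 gate, day and genotype, which makes 36 tests. In 8 of these, from 6 groups, 1 library lay far from the others. How often chance gives this was not worked out for such counts, some of which are near 0. Ngfr was the gene in 6 of them. Ngfr was 58.7 CPM in inflammatory cells of day 1 library 3, where the others had 0.849 to 7.69 CPM, and 7.51 CPM in inflammatory cells of day 2 library 4, where the others had 0.581 to 2.96 CPM. In FAP, Ngfr was 73.5 CPM in day 3 library 4 (others 1.35 to 11.5 CPM), 10.8 CPM in day 2 library 1 (others 1.56 to 3.19 CPM) and 0.555 CPM in day 1 library 3 (others 0 to 0.0836 CPM). In undamaged EC it was 2.81 CPM in library 2 (others 0.621 to 0.981 CPM). S100b was 18.02 CPM in FAP of day 2 library 2 (others 5.42 to 9.49 CPM), and Sox10 was 3.01 CPM in FAP of day 3 library 1 (others 0 to 0.643 CPM).

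Ngfr also moved in opposite directions in 2 gates at later days. Every WT MP library of days 4 to 10 was above all undamaged WT MP libraries, with a log2 fold change of 1.54, and every inflammatory library of days 4 to 14 was below both undamaged inflammatory libraries, with a log2 fold change of -2.06. Neither passed the adjusted threshold, and the difference between the gates was not tested.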

How the results depend on the processing

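The number of members called changed under these alternatives, and where no cause is named the cause was not tested. In pericytes of days 1 to 3 it was 0, and became 1 without a filter on low counts (Mbp -2.96, adjusted p = 0.00891) and 1 in R52 libraries alone. DESeq2 called 276 genes there and no member. In total muscle it was 2 in days 1 to 3 and became 1 without TMM and 1 without day 3 (Mbp -0.44, adjusted p = 0.0986). In days 10 to 14 it was 1 and became 2 without the filter, 2 with these phases fitted alone, 2 without day 14 and 0 without day 10. In FAP it was 3 in days 1 to 3 and became 1 without day 1 (S100b -0.90, Sox10 -1.98). In days 4 to 14 it was 0 and became 1 without TMM, 1 with R52 as a covariate, 2 in R52 libraries alone (Ngfr 2.78, adjusted p = 0.0423) and 1 without day 14. In EC it was 2 in days 1 to 3 and became 0 in libraries without R52 and 1 without day 1, and in days 4 to 14 it was 0 and became 1 with DESeq2 and 1 without libraries closest to another gate. In MP of days 1 to 3 it was 0 and became 1 with R52 as a covariate, 2 in R52 libraries alone and 2 without libraries closest to another gate, and in days 4 to 10 it was 0 and became 3 in R52 libraries alone, 1 without libraries closest to another gate and 1 with the phases fitted alone. In inflammatory cells it was 3 in days 1 to 3 and became 1 in R52 libraries, 1 in the others and 1 without day 2, and in days 4 to 14 it was 0 and became 2 without TMM, 1 with R52 as a covariate and 1 without day 10. The median ratio of Mbp to Sox10 in FAP was 0.839 at 50 counts or more, from 1 library. Replicate numbers did not pair libraries (median correlation of same-numbered libraries -0.041 to 0.155). With replicate number as a block, the count became 1 in inflammatory cells of days 1 to 3 and 2 in days 4 to 14, and Ngfr turned to 0.61 in FAP of days 4 to 14 and -0.61 in pericytes of days 5 to 10, Sox10 to 0.74 in the FAP genotype comparison and Ngfr to 0.34 in that of MP.

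Values that changed sign were, in R52 libraries alone, Ngfr in FAP (1.79 in days 1 to 3), S100b in FAP (0.0893 in days 4 to 14), Ngfr (0.91) and Sox10 (0.0587) in inflammatory cells, and between genotypes Sox10 (0.39) and Mbp (1.82) in EC and Mbp (0.52) and Ngfr (2.06) in FAP. Without R52 libraries they were Ngfr in EC of days 4 to 14 (-0.22) and, between genotypes in MP, Sox10 (0.27) and Ngfr (0.10). With R52 as a covariate, Sox10 turned to -0.19 in MP of days 1 to 3 and to 0.14 in the FAP genotype comparison. Without a day, Ngfr turned to 0.0658 in FAP (day 1), 0.11 and 0.20 in inflammatory cells (days 2 and 3), -1.01 in pericytes (day 5), and -0.00862 and -0.16 in total muscle (days 3 and 10), and Sox10 to -0.29 in MP (day 1). Without libraries closest to another gate, Sox10 turned to -0.58 in MP of days 1 to 3 and S100b to 0.57 in the MP genotype comparison. In the same comparison Ngfr turned to 0.00214 without libraries whose code names another day. Without TMM, S100b (0.20) and Mbp (0.0687) turned in total muscle of days 1 to 3.

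Leaving out 1 library at a time gave 0 to 1 and 0 to 0 members called in the pericyte phases, 1 to 3, 2 to 2 and 0 to 2 in total muscle, 2 to 4 and 0 to 1 in FAP, 1 to 2 and 0 to 2 in EC, 0 to 1 and 0 to 1 in MP, 1 to 3 and 0 to 1 in inflammatory cells, and 0 to 0 between genotypes. Besides the libraries named above, undamaged EC library 4, FAP undamaged libraries 2 and 3, day 3 library 4, day 4 library 1 and day 14 library 1, MP day 2 library 1, inflammatory day 6 library 1, day 7 library 3 and day 10 library 1, and total muscle day 1 library 1 and day 10 library 2 each changed a count. Ranges that crossed 0 were -2.21 to 1.54 (Ngfr, FAP days 1 to 3), -1.65 to 0.40 and -0.80 to 2.99 (S100b and Ngfr, FAP days 4 to 14), -1.06 to 0.88 (Sox10, MP days 1 to 3), -0.98 to 0.0420 (Ngfr, inflammatory days 1 to 3), -2.68 to 1.48 (Sox10, inflammatory days 4 to 14), -0.62 to 0.29 and -1.01 to 1.88 (S100b and Ngfr, pericytes days 5 to 10), and between genotypes -0.80 to 0.0407 (S100b, EC), -0.75 to 0.23 (Sox10, FAP) and -1.07 to 0.13 (S100b, MP). Over all genes and all of these settings, the number of genes called ran from 0 to 1716 (1 as reported) and 0 to 47 (0) in the pericyte phases, 8426 to 10664 (9875), 5470 to 8277 (7831) and 1555 to 4543 (3747) in total muscle, 583 to 5522 (4246) and 21 to 4915 (1456) in FAP, 94 to 2233 (1560) and 0 to 381 (101) in EC, 3773 to 7327 (6025) and 264 to 2636 (881) in MP, 1145 to 5529 (4439) and 87 to 3677 (2492) in inflammatory cells, and between genotypes 0 to 710 (313) in FAP, 0 to 234 (12) in EC and 0 to 325 (1) in MP. Libraries without R52 could not be fitted alone in pericytes, where they cover too few days. Undamaged groups of 2 to 4 libraries and near-zero Sox10 counts in FAP and inflammatory cells limit what these comparisons can show.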
